A study of Mus musculus with 20 samples.

Results

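Follicular helper T (Tfh) cells with counts of *Il4* and none of *Il21* were compared with those holding *Il21* and none of *Il4*, within each of 10 mice. The cells belong to the 2 clusters that the authors named activated and Sostdc1. The cells were chosen by their measured counts of *Il4* and *Il21*, and a cell counted as Il4-only where the deposited matrix gave it at least 1 corrected count of *Il4* and 0 of *Il21*, and as Il21-only for the reverse. This gave 1569 Il4-only and 2906 Il21-only cells, 4475 of the 14756 cells of both clusters and of 28192 cells in all. Another 526 cells held both transcripts and 9755 held neither. Since the counts of *Il4* and *Il21* chose the cells, their levels are given as a description only.

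The mice were irradiated recipients of wild-type marrow alone (WT chimeras, n = 5) or of wild-type marrow mixed with marrow from 564Igi mice (autoimmune 564Igi chimeras, n = 5), whose B cells carry knocked-in heavy and light chains of a receptor against ribonuclear complexes. At week 6 the WT chimeras received the antigen NP-OVA with alum, and the paper's methods add a later NP-OVA booster. No immunization is given for 564Igi chimeras, so that conditions differ in marrow and immunization together. The labels give week 10 for the analysis of every mouse. The sort took CD4+ spleen cells with surface CXCR5 and PD-1 that were CD45.2+ and CD45.1-.

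Tfh cells enter B cell follicles through the chemokine receptor CXCR5 and help germinal center B cells through CD40 ligand, SLAM family contacts and secreted cytokines. Interleukin 21 sustains germinal center B cells and their differentiation to plasma cells. Interleukin 4 acts on B cell survival and on class switching to IgG1 and IgE, and in Tfh cells its expression depends in part on the adaptor SAP, the product of *Sh2d1a*. Both genes are transcribed in bursts, and a droplet library captures a fraction of a cell's RNA, so a count of 0 does not show that a cell lacks the transcript.

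*Il4* (chr11:53602982-53618669, minus strand, GRCm38) was found in 13.2% of activated and 18.6% of Sostdc1 cells. *Il21* (chr3:37222759-37232636, minus strand) was found in 21.7% and 29.97%. The lowest shares among the authors' clusters were 0.733% for *Il4* in effector and 2.21% for *Il21* in central memory cells, at median depths of 3471 and 4027 UMIs against 3547 and 3741 UMIs in activated and Sostdc1 cells. No cell type in the sort is known to lack both transcripts, and free RNA was not removed. Most members lay just inside the threshold of 1 count: 994 of 1569 Il4-only cells and 1999 of 2906 Il21-only cells had a single count, 338 and 578 had 2, and the highest count was 11 on each side. The mean level of *Il4* in Il4-only cells was 1.29 ± 0.062 on the log2(corrected count + 1) scale and 1.33 in cells with both transcripts (SD, n = 10 mice). That of *Il21* in Il21-only cells was 1.25 ± 0.0402, against 1.28 in cells with both.

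The members were T cells with the markers of the sort. *Cd3e* was found in 99.5% of Il4-only and 99.5% of Il21-only cells, and *Cd4* in 73.8% and 79.5% (means of 10 mice). Summed corrected counts per cell of *Cd3e* and *Cd4* had medians over mice of 8.61 and 10.8, and were higher in Il4-only cells in 0 of 10 mice. *Pdcd1* was found in 89.4% and 83.2%, *Icos* in 65.1% and 72.4%, *Cxcr5* in 56.2% and 45.5%, and *Bcl6* in 16.3% and 16.1%. *Foxp3*, which defines follicular regulatory T (Tfr) cells, was found in 4.09% and 3.58%. Summed corrected counts per cell of the Tfr markers *Foxp3*, *Il2ra* and *Ikzf2* ranged from 1.05 to 2.03 over mice in Il4-only and from 1.56 to 2.25 in Il21-only cells. The sum was lower in Il4-only cells in every mouse and rested largely on *Ikzf2*, found in 57.9% and 70.4%. B cell markers (4 of 5 measured) summed to at most 0.0298 and 0.0409 counts per cell, with *Ms4a1* at 0 in the 1569 Il4-only cells. That 0 allows up to 0.191% of cells with a corrected count of the gene and sets no limit on cells expressing it. Markers of NKT, NK and CD8 cells (4 of 6 measured) summed to at most 0.128 and 0.0517, led by *Klrb1c* in 4.47% and 2.30% of cells. The NKT factor *Zbtb16* was found in a mean of 0.0366% of Il4-only cells. It was at 0 in the 2906 Il21-only cells, which allows up to 0.103% with a corrected count. Erythroid markers summed to at most 0.0323 and 0.0186. Myeloid markers (3 of 4 measured) summed to at most 0.0205 in Il4-only cells and had a median of 0 on both sides, with 1 mouse at 0.686 in Il21-only cells.

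The 2 sides differed in depth and quality. Il4-only cells had a median of 3579 ± 771 UMIs and Il21-only cells of 3899 ± 525 (mean ± SD of 10 mice), and the Il4-only median was the lower one in 9 of 10 mice (exact sign-flip test over mice, two-sided, p = 0.0371, adjusted over 4 measures 0.0495). The median number of genes was lower by 103 ± 104 in Il4-only cells (adjusted exact p = 0.0391). Leaving out 1 mouse ended the first call in 9 of 10 cases, 564Igi mouse 17 being the exception, and the second in 8, with 564Igi mice 13 and 17 the exceptions. Mitochondrial UMIs made up 3.97% ± 0.199 of Il4-only and 3.53% ± 0.286 of Il21-only cells, and were higher in Il4-only cells in 10 of 10 mice (exact p = 0.00195, the smallest these mice allow, adjusted 0.00781). Ribosomal UMIs made up 21.7% and 21.6% (adjusted exact p = 0.832). Gene results between the sides over both clusters are therefore set beside fits with the same make-up of UMI quintiles or of mitochondrial quintiles. The fits within a cluster, in Tfr cells and between conditions were not matched in this way.

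The first question was how the cells divide between the cytokines and whether autoimmune chimeras differ. Il21-only cells outnumbered Il4-only cells in 9 of 10 mice. Il4-only cells made up 7.33%, 16.6%, 8.61%, 8.81% and 12.8% of the cells of both clusters in WT mice 11, 12, 14, 23 and 36, and 8.01%, 16.1%, 10.96%, 4.86% and 8.49% in 564Igi mice 13, 17, 21, 24 and 34. Il21-only cells made up 16.1%, 10.8%, 21.8%, 18.3% and 19.6% in the same WT mice, and 27.8%, 18.9%, 21.3%, 23.04% and 19.8% in the 564Igi mice. The groups overlapped for both classes, and WT mouse 12 was the mouse in which Il4-only cells were the more frequent. The share of Il4-only cells was 10.8% ± 3.81 in WT and 9.68% ± 4.18 in 564Igi chimeras (exact permutation test over mice, two-sided, p = 0.619, adjusted over 5 shares 0.619). The share of Il21-only cells was 17.3% ± 4.18 and 22.2% ± 3.52 (exact p = 0.0714, adjusted 0.278), and that of cells with both was 2.78% ± 0.995 and 3.90% ± 1.37 (exact p = 0.175, adjusted 0.291). Of cells with a single cytokine, 38.5% ± 13.01 in WT and 29.9% ± 11.01 in 564Igi chimeras were Il4-only (exact p = 0.325, adjusted 0.406). Thus none of the 5 shares passed the test between conditions. The authors normalized the corrected counts that set the classes separately by condition, and how far that moves the shares was not tested. With at least 2 counts required, Il21-only cells made up 4.99% ± 1.22 in WT and 7.42% ± 1.56 in 564Igi chimeras (exact p = 0.0159, adjusted 0.0794).

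**Figure D1:**
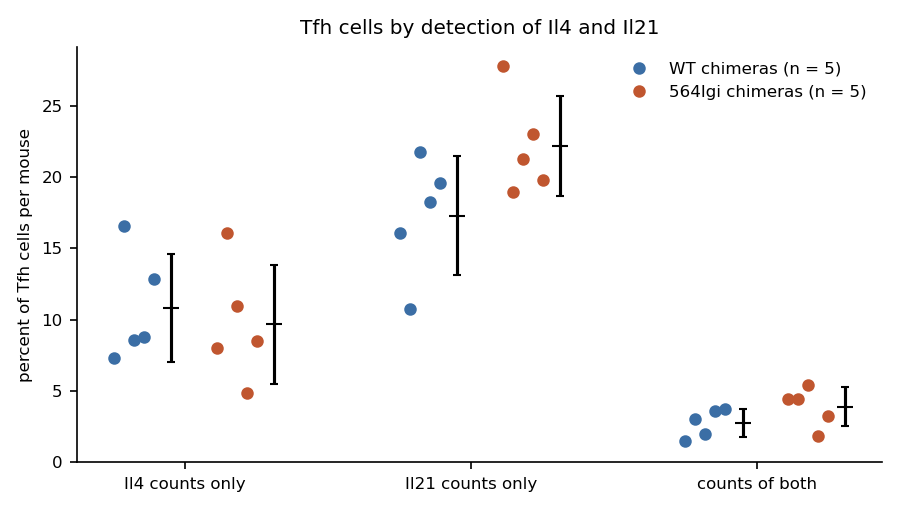
Percent of the cells of the activated and Sostdc1 clusters (y axis) with counts of *Il4* only, of *Il21* only or of both, for each WT (blue) and 564Igi (orange) chimera, with mean ± SD (black, n = 5 per condition). Il21-only shares run from 10.8% to 21.8% in WT and from 18.9% to 27.8% in 564Igi chimeras, and the conditions overlap in all 3 classes.

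Detection of one cytokine went little with that of the other. The odds ratio of finding both in a cell ranged from 0.714 to 1.56 over the 10 mice with a median of 1.18, and from 0.643 to 1.59 with a median of 1.17 within 3 bins of UMIs per cell. These are correlations over cells that share a library and depth and were not tested.

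The next question was which other genes went with each cytokine. Il4-only cells had higher levels of *Rgs10*, *Rflnb*, *Sh2d1a*, *Asb2* and *Id3*, and lower levels of *S100a6*, *Lag3*, *Lgals1*, *Ccnd2* and the other genes of the plot by mouse. Of 8944 genes tested with limma on the within-mouse differences, 1172 were called at an adjusted p below 0.05, or 13.1%: 297 were higher in Il4-only cells (3.32%) and 875 in Il21-only cells (9.78%). The difference had the same sign in every mouse for 432 of the called genes and for 466 genes in all (5.21%). At an adjusted p below 0.01 and a difference above 0.2, 105 genes were called (1.17%). Most were small, with 820 of the called genes under 0.1 on the log2(corrected count + 1) scale, on which changes of low genes are understated. The median difference over all genes tested was -0.00715. With the same UMI quintiles on both sides the count was 744 (8.31%), with 352 higher in Il4-only (3.93%) and 392 in Il21-only cells (4.38%), so the split between directions moved from 25.3% to 47.3% higher in Il4-only cells. All 1170 of the called genes tested there kept their direction and 673 were called again. With the same mitochondrial quintiles 743 were called, and without the mice of the libraries numbered 34 and 36, whose numbers lie apart from the others in the labels, 738.

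*Rgs10* (chr7:128373621-128418758), a regulator of G protein signaling, had the largest difference toward Il4-only cells. Its mean level per mouse was 1.86 to 2.18 (median 2.01) in Il4-only and 0.874 to 1.67 (median 1.42) in Il21-only cells. The ranges did not overlap. The difference was 0.66 ± 0.0589 (SE, n = 10, limma adjusted p = 3.06e-09). *Sh2d1a* (chrX:42502453-42529330), which encodes the adaptor SAP of the SLAM family receptors, had levels of 0.958 to 1.67 (median 1.32) and 0.593 to 1.31 (median 0.849), and a difference of 0.47 ± 0.0465 (limma adjusted p = 1.81e-08). Its ranges overlapped between mice, but within each mouse Il4-only cells were higher. *Asb2*, a subunit that directs ubiquitin ligases to their targets, was at 0.509 to 0.815 in Il4-only and 0.148 to 0.524 in Il21-only cells (difference 0.40 ± 0.025, limma adjusted p = 8.39e-12). *Id3*, an inhibitor of E proteins, and *Tcf7*, which encodes the Tfh factor TCF-1, differed by 0.32 ± 0.0385 and 0.31 ± 0.0417 (limma adjusted p = 4.66e-07 and 3.60e-06). The remaining genes of the 12 largest in this direction were *Rflnb* (0.51), the actin-binding *Tmsb10* (0.38), the adaptor *Fyb* (0.36), the ADP-ribosyltransferase *Art2b* (0.35), the LIM protein *Lmo4* (0.33), *Tespa1* of T cell receptor signaling (0.31) and *Ly6e* (0.29).

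*S100a6* (chr3:90612882-90624181), a calcium-binding protein, had the largest difference toward Il21-only cells. Its level was 1.07 to 1.60 (median 1.27) in Il4-only and 1.54 to 2.69 (median 2.27) in Il21-only cells, with WT mouse 12 at the low end of the latter. The difference was -0.93 ± 0.0772 (limma adjusted p = 8.75e-10). *Lag3* (chr6:124904361-124911705), an inhibitory receptor for MHC class II, had levels of 0.119 to 0.704 (median 0.475) and 0.304 to 1.40 (median 1.17). Il21-only cells were higher in each mouse, and WT mouse 12 was the lowest on both sides. The difference was -0.67 ± 0.0432 (limma adjusted p = 1.01e-11). *Ptms* differed by -0.47 ± 0.0378 and lies 1975 bases from *Lag3* on the same strand. *Lgals1* for galectin-1 (-0.65), the cyclin *Ccnd2* (-0.53), the endosomal *Eea1* (-0.53), the proteoglycan *Srgn* of secretory granules (-0.51), *Tnfsf8* for CD30 ligand (-0.44), *Ahnak* (-0.44), the integrin chain *Itgb1* (-0.44), *Crip1* (-0.43) and the intermediate filament *Vim* (-0.43) made up the rest of the 12. All 24 genes were called with matched UMI and with matched mitochondrial quintiles, and with any mouse left out. They were chosen as the largest of the called genes with the same sign in every mouse. These repeated calls in the same cells were therefore likely in advance and are no separate support.

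**Figure D2:**
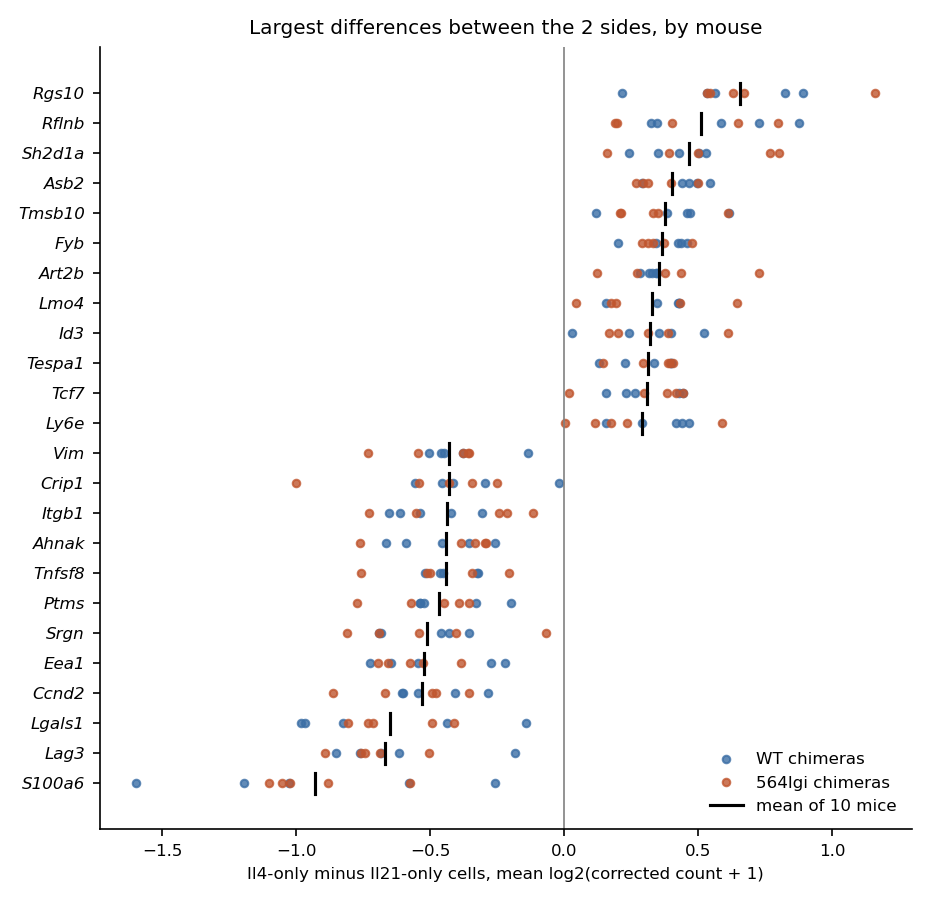
Il4-only minus Il21-only mean log2(corrected count + 1) (x axis) for the 12 genes with the largest called difference in each direction, 1 point per mouse (WT blue, 564Igi orange), with the mean of 10 mice as a black bar. The sign is the same in all 10 mice for each of these 24 genes, which the choice of genes required, and both colors lie on the same side of 0.

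Tfh identity genes divided between the sides. Of 23 listed genes, 8 were higher in Il4-only and 6 in Il21-only cells, against 3.32% and 9.78% of all genes tested. Their median difference was -0.000357, against -0.00715 for all genes. *Cxcr5*, which directs cells into the follicle, was higher in Il4-only cells in 10 of 10 mice (0.19 ± 0.0266, limma adjusted p = 4.93e-06). *Pdcd1*, the gene for PD-1, was higher in 9 (0.29 ± 0.0593), *Cd40lg* for CD40 ligand in 9 (0.12 ± 0.0274), the coactivator *Pou2af1* in 9 (0.12 ± 0.023) and *Tox2* in 8 (0.10 ± 0.026). Toward Il21-only cells lay the costimulatory receptor *Icos* (-0.21 ± 0.049, limma adjusted p = 0.0038), *Maf*, whose product binds the *Il4* and *Il21* genes (-0.20 ± 0.0369), *Tigit* (-0.25 ± 0.0398) and *Irf4* (-0.05 ± 0.00854). With matched UMI quintiles *Izumo1r* went from 0.15 to 0.07, *Cd200* from -0.10 to -0.07 and *Rgs16* from -0.16 to -0.11, and none of the 3 was then called. *Bcl6*, the lineage-defining repressor, was found in like shares of both sides, as given above.

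Of the genes of the *Il4* locus and type 2 program, 10 of 15 listed were tested. Of these 3 were called toward each side, against 3.32% of all genes toward Il4-only and 9.78% toward Il21-only cells. *Gata3*, the type 2 transcription factor that binds the *Il4* locus, was at 0.255 to 0.496 (median 0.352) in Il4-only and 0.217 to 0.335 (median 0.273) in Il21-only cells. Il4-only cells were higher in all 10 mice, though the ranges overlapped (difference 0.09 ± 0.0198, limma adjusted p = 0.00207). *Kif3a*, a kinesin gene that ends 1014 bases from the annotated end of *Il4* on the opposite strand (chr11:53567379-53601967), was found in 9.56% of Il4-only and 4.29% of Il21-only cells (0.05 ± 0.0107, limma adjusted p = 0.000765). The deposited matrix holds counts per gene, so reads beyond the ends of either gene were not examined. The type 2 chemokine receptor gene *Ccr4* was also higher in Il4-only cells (0.06 ± 0.0117). *Il10*, *Maf* and *Nfil3* were higher in Il21-only cells. *Il10*, an inhibitory cytokine, was found in 0.651% of Il4-only and 5.56% of Il21-only cells. It passed the filter of 2% mean detection through the Il21-only side, as did *Nkg7*, *Fasl*, *Bach2*, *Nr4a3*, *Ahr*, *Socs2* and *Cish*, each found in under 2% of Il4-only cells, so that no SE or p is given for them. They are counted in the tallies of the lists and of all genes, where they could hardly be called toward Il4-only cells.

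Genes of the Th1 and Th17 programs lay mostly toward Il21-only cells. Of 13 genes tested, 11 were higher in Il21-only cells and 1, the chemokine receptor *Cxcr6*, was higher in Il4-only cells, with a median difference of -0.08. The 11 include *Nkg7* and *Ahr*, which passed the filter through that side. Of all genes tested, 9.78% were called toward Il21-only and 3.32% toward Il4-only cells. *Cxcr3*, the Th1 chemokine receptor, was at 0.102 to 0.310 (median 0.225) in Il4-only and 0.450 to 0.795 (median 0.532) in Il21-only cells, without overlap (-0.36 ± 0.0284, limma adjusted p = 4.95e-10). *Ifng* for interferon gamma was found in 7.003% and 20.5% of cells (-0.18 ± 0.0152, limma adjusted p = 1.64e-09). *Tbx21* for T-bet was found in 2.07% and 9.18% (-0.08 ± 0.00946, limma adjusted p = 2.67e-07). *Nkg7* of cytotoxic granules was found in 1.62% and 11.9%. *Id2* (-0.14 ± 0.022), *Bhlhe40* (-0.16 ± 0.0235) and *Stat4* (-0.13 ± 0.0273) were also called. *Cxcr6* was found in 16.8% of Il4-only and 3.07% of Il21-only cells (0.16 ± 0.0185, limma adjusted p = 1.51e-07). *Ccl5* was called at -0.0409, and with matched UMI quintiles it differed by -0.0430 and was not called (limma adjusted p = 0.0875). For most of the 11 genes, cells with neither transcript lay nearer to Il21-only than to Il4-only cells. *Cxcr3* was at 0.572 in cells with neither and 0.584 in Il21-only cells, and *Id2* at 0.425 and 0.419. The exceptions were *Ifng*, at 0.159 and 0.254, *Stat4* and *Bhlhe40*.

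The sides also differed in genes that place T cells in lymphoid tissue. Of 20 genes for follicle positioning and trafficking, 5 were higher in Il4-only and 8 in Il21-only cells, against 3.32% and 9.78% of all genes tested. Toward Il4-only cells were *Cxcr5*, *S1pr2*, which holds cells in the germinal center (0.11 ± 0.0193, limma adjusted p = 0.000153), and *Gpr183*, the oxysterol receptor of the follicle border (0.25 ± 0.0398, limma adjusted p = 4.98e-05). Toward Il21-only cells were *Klf2*, *S1pr1* and *Ccr7*, which promote exit from tissue or a stay in the T zone, and the integrin chains *Itga4* and *Itgb1*. *Klf2* was at 0 to 0.252 (median 0.0889) in Il4-only and 0.261 to 0.847 (median 0.369) in Il21-only cells, without overlap (-0.35 ± 0.0318, limma adjusted p = 4.62e-09). *S1pr1* differed by -0.17 ± 0.0196, *Ccr7* by -0.11 ± 0.015 and *Itga4* by -0.40 ± 0.0362. These genes were not highest in Il21-only cells. In cells with neither transcript and in Il21-only cells *S1pr1* was at 0.439 and 0.361, *Ccr7* at 0.191 and 0.175, and *Itga4* at 0.902 and 0.878. *Itgb1* was at 1.19 and 1.20, while *Rgs16* went the other way at 0.389 and 0.582. *Itgb7* (-0.08, then -0.07) and *Rgs16* were not called with matched UMI quintiles, which left 6 toward Il21-only cells. Memory and quiescence genes divided, with *Tcf7*, *Lef1*, *Id3* and *Cd27* toward Il4-only and *Ccr7*, *Klf2*, *S1pr1* and *Bach2* toward Il21-only cells, of 14 tested. *Bach2* differed by -0.0188, and by -0.0174 with matched UMI quintiles, where it was not called.

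Genes induced by the T cell receptor were called toward Il21-only cells or not at all. Of 18 tested, 10 were higher in Il21-only and 0 in Il4-only cells, and the median difference was -0.04. These were *Nr4a1* and *Nr4a3*, *Egr1* and *Egr2*, *Nfatc1*, *Irf4*, *Tnfrsf4*, *Dusp2*, *Dusp5* and *Spry1*, of which *Nr4a3* passed the filter through the Il21-only side. *Nfatc1*, the autoregulated calcineurin target, was at 0.567 to 0.943 (median 0.776) in Il4-only and 0.995 to 1.28 (median 1.17) in Il21-only cells, without overlap (-0.37 ± 0.0328, limma adjusted p = 2.32e-09). *Nr4a1*, an early response gene, was found in 6.66% and 15.7% of cells (-0.16 ± 0.0183, limma adjusted p = 2.76e-07). *Tnfrsf4* for OX40 differed by -0.42 ± 0.0449 and *Dusp2* by -0.35 ± 0.0363. With matched UMI quintiles *Nr4a3* went from -0.0177 to -0.0147 and *Dusp5* from -0.0215 to -0.0189, and neither was called, which left 8. Of 15 NF-kB members and feedback genes 4 were higher in Il21-only cells, led by the inhibitor *Nfkbia* (-0.32 ± 0.0311, limma adjusted p = 1.34e-08), and of 8 AP-1 genes 2 were, *Junb* (-0.17 ± 0.0325) and *Bach2*. *Bach2* passed the filter through the Il21-only side. Over all genes 9.78% were called toward Il21-only cells. With matched UMI quintiles these counts were 2 and 1, against 4.38% of all genes, and *Nfkb1* was then called toward Il4-only cells.

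Inhibitory receptors went both ways, while of all genes tested 3.32% were called toward Il4-only and 9.78% toward Il21-only cells. Of 14 tested, *Pdcd1*, *Cd160*, *Cd200r1* and *Cd96* were higher in Il4-only cells, and 7 were higher in Il21-only cells. Beside *Lag3* and *Tigit* the latter held *Ctla4*, the competitor of CD28 for its ligands (-0.29 ± 0.0338, limma adjusted p = 2.67e-07), *Vsir* for VISTA (-0.19 ± 0.0238), *Cd200*, *Entpd1* and *Nt5e*. *Cd200* and *Nt5e* (-0.12, then -0.11) were not called with matched UMI quintiles. Of 15 other cytokines and B cell help ligands tested, *Cd40lg* was higher in Il4-only cells and 8 were higher in Il21-only cells, among them *Tnf* (-0.10 ± 0.0161, limma adjusted p = 6.44e-05), *Spp1*, *Fasl*, *Tgfb1* and *Tnfsf8*. The 8 include *Il10* and *Fasl*, which passed the filter through that side. With matched UMI quintiles 5 of these 8 were called. Of 24 cytokine receptors and feedback genes tested, 7 were higher in Il21-only cells, against 9.78% of all genes, led by *Il2rb* (-0.21 ± 0.0334), and *Tgfbr2* was higher in Il4-only cells (0.11 ± 0.0218). Of the 7, 5 were called with matched UMI quintiles, and *Il10rb* and *Il21r* were not. *Socs2* and *Cish*, among the 7, passed the filter through the Il21-only side.

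Metabolic and chaperone genes were called in both directions. Of all genes tested, 3.32% were called toward Il4-only and 9.78% toward Il21-only cells. With matched UMI quintiles these shares were 3.93% and 4.38%. Of 14 glycolytic enzymes tested 6 were higher in Il21-only and 0 in Il4-only cells, led by *Ldha* (-0.25 ± 0.0394, limma adjusted p = 2.67e-05) and *Eno1* (-0.17 ± 0.032). With matched UMI quintiles those 2 were called, and *Gapdh*, *Tpi1*, *Hk1* and *Pfkp* were not. Of 10 heat shock chaperones tested 4 were higher in Il21-only cells, and 2 of them, *Hspa8* and *Hsp90ab1*, with matched UMI quintiles. Of 20 genes for ER chaperones and secretion, *Sec11c* (0.17 ± 0.0239, limma adjusted p = 8.15e-06), *Dnajc3* (0.14 ± 0.0297), *Pdia3* and *Herpud1* were higher in Il4-only cells and *Hsp90b1* in Il21-only cells (-0.15 ± 0.0297). Of 22 interferon-stimulated genes tested 1 was called in each direction, *Ifi208* and *Ifi203*, a share near that of all genes.

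Lists for other cells had few genes that could be tested. The shares called over all genes were 3.32% toward Il4-only and 9.78% toward Il21-only cells. Of 6 regulatory T cell markers tested, 5 were higher in Il21-only cells, *Ikzf2* (-0.26 ± 0.037), *Ctla4*, *Tnfrsf18*, *Capg* and *Nrp1*. These genes are also expressed in activated helper cells, and whether Tfr cells had a part was not tested. *Foxp3*, found in 4.09% and 3.58% of cells as given above, was not called. Of 5 NKT, NK and CD8 genes tested, *Il2rb*, *Tbx21* and *Nkg7* were higher in Il21-only cells. Of 2 B cell genes tested *Cd22* was higher in Il4-only cells (0.03 ± 0.00751), and the 1 myeloid gene tested, *Cst3*, was not called (-0.02 ± 0.0244, limma adjusted p = 0.7098). No basophil or mast cell gene passed the filter of 2% detection. The part of other cells in these results was not tested.

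Levels in cells with both transcripts and with neither were set beside those of the 2 sides. These levels are a description, and the class with both holds 12 to 95 cells per mouse. For 8 of the 12 genes highest in Il4-only cells, cells with both lay nearer to Il4-only cells and cells with neither nearer to Il21-only cells. *Rgs10* was at 2.01 in Il4-only, 1.97 in both, 1.36 in Il21-only and 1.33 in cells with neither (means of 10 mice). *Asb2* was at 0.655, 0.606, 0.255 and 0.262, and *Gata3* at 0.364, 0.397, 0.274 and 0.289, in the same order. In each of these 3 genes both classes with *Il4* lay above both classes without it. *Rflnb* was an exception, at 0.742 in Il4-only, 0.257 in both, 0.232 in Il21-only and 0.465 in cells with neither.

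Among genes highest in Il21-only cells there were several patterns. *Vim* was at 0.402 in Il4-only, 0.538 in both, 0.832 in Il21-only and 0.971 in cells with neither, and *S100a6* at 1.27, 1.55, 2.20 and 2.12, so that both classes with *Il4* lay below both classes without it. *Klf2* was at 0.114, 0.113, 0.460 and 0.623. *Tnfsf8* instead was at 1.13, 1.43, 1.57 and 1.09, *Nfatc1* at 0.770, 1.07, 1.14 and 0.834, and *Maf* at 1.16, 1.48, 1.36 and 1.02, with cells holding *Il21* high whether or not they held *Il4*. *Lag3* lay highest in Il21-only cells at 1.13, with 0.728 in both, 0.782 in neither and 0.457 in Il4-only cells. Over all 875 genes called toward Il21-only cells, 445 (50.9%) had both nearer to Il21-only and neither nearer to Il4-only cells, and 155 (17.7%) the reverse. Over the 297 genes called toward Il4-only cells, 149 (50.2%) had both nearer to Il4-only and neither nearer to Il21-only cells, and 44 (14.8%) the reverse. Cells with both had the highest median depth, 4312 UMIs, and cells with neither the lowest, 3401 UMIs. Il21-only cells at 3899 and Il4-only cells at 3579 UMIs lay between. The pattern of the 445 genes has the same order as depth, and the part of depth in it was not tested.

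**Figure D3:**
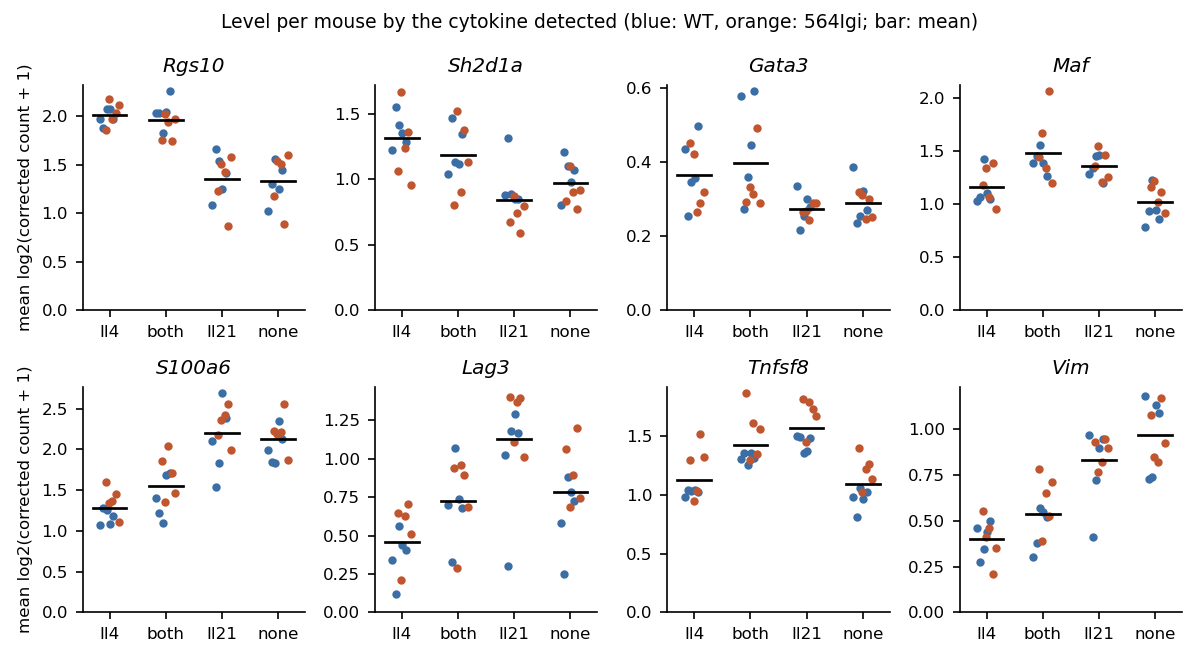
Mean log2(corrected count + 1) per mouse (y axis, from 0) of 8 genes in cells with *Il4* only, both, *Il21* only or neither transcript, 1 point per mouse (WT blue, 564Igi orange) and a bar at the mean of 10 mice. *Rgs10* and *Gata3* are high in the classes with *Il4*, *Maf* and *Tnfsf8* in those with *Il21*, and *S100a6* and *Vim* are lower in both classes with *Il4* than in the others.

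The sides were next compared within each cluster. The Sostdc1 cluster held 21.1% ± 2.56 and 28.9% ± 9.56 of Il4-only cells in WT and 564Igi chimeras (exact permutation p = 0.135, adjusted over 2 sides 0.270), and 23.8% ± 5.46 and 21.8% ± 7.83 of Il21-only cells (exact p = 0.611, adjusted 0.611). It was higher in Il4-only cells in 6 of 10 mice. Without 564Igi mouse 17 the difference between conditions in Il4-only cells was 11.6 percentage points (exact permutation adjusted p = 0.0159). With the Sostdc1 share matched between the sides, a setting chosen after the data were seen, 1181 genes were called. In the activated cluster alone 975 of 8921 genes were called (10.9%), 272 toward Il4-only (3.05%) and 703 toward Il21-only cells (7.88%), with 120 (1.35%) at the stricter threshold, and 873 of them were among the 1172 with the same direction. The largest differences there were *S100a6* (-0.98 ± 0.0829), *Lag3* (-0.74 ± 0.0502) and *Lgals1* (-0.68 ± 0.0668) toward Il21-only cells, and *Rgs10* (0.69 ± 0.0693), *Rflnb* (0.58 ± 0.0585) and *Sh2d1a* (0.48 ± 0.0489) toward Il4-only cells. In the Sostdc1 cluster, where 564Igi mouse 24 had under 10 Il4-only cells and was left out, 175 of 9023 genes were called in 9 mice (1.94%), 52 (0.576%) and 123 (1.36%), with 58 (0.643%) at the stricter threshold. Of these 159 were among the 1172 in the same direction. The largest were *S100a6* (-0.79 ± 0.0789), *Lgals1* (-0.58 ± 0.0704) and *Tnfsf8* (-0.49 ± 0.0641), and *Rgs10* (0.50 ± 0.0725), *Sh2d1a* (0.41 ± 0.064) and *Art2b* (0.38 ± 0.0488). The difference between the clusters was not tested, and the Sostdc1 cluster held fewer cells. The fits within each cluster were not matched for UMIs or mitochondrial content.

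The same contrast was taken in cells of the Tfr cluster, a comparison chosen after the data were seen. Tfr cells restrain the germinal center and lie outside the 2 clusters of the rule, but came from the same mice and libraries. They held 585 Il4-only and 588 Il21-only cells, and *Il4* and *Il21* were found in 5.89% and 5.91% of the cluster. Of 9201 genes 452 were called (4.91%), 139 toward Il4-only (1.51%) and 313 toward Il21-only cells (3.4%). Among the 1150 genes called in Tfh cells and tested here, 935 (81.3%) had the same direction, against 60.8% of the 7665 genes not called in Tfh cells. Of 240 genes called in both, 235 had the same direction, which is 20.1% of the Tfh calls and 52.0% of the Tfr calls. The Tfr sides were divided by the same counts of *Il4* and *Il21* and were not matched for depth or mitochondrial content. The part of depth or detection in the shared directions was not tested. *Rgs10* differed by 0.57, *Sh2d1a* by 0.61, *Art2b* by 0.41 and *Pdcd1* by 0.42 in Tfr cells, and *Tnfsf8* by -0.49, *Ccnd2* by -0.45 and *Lag3* by -0.32, all of them called. *Rflnb* and *Tcf7* differed by 0.09 and -0.07 and were not called. Genes called in opposite directions included *Ikzf2*, *Gimap1*, *Pglyrp1* and *Rps24*, named after their values were seen. *Ikzf2*, which encodes the regulatory T cell factor Helios, was lower in Il4-only Tfh cells (-0.26, limma adjusted p = 7.59e-06) and higher in Il4-only Tfr cells (0.27, limma adjusted p = 0.00653). *Foxp3* was also called toward Il4-only cells in this cluster.

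**Figure D4:**
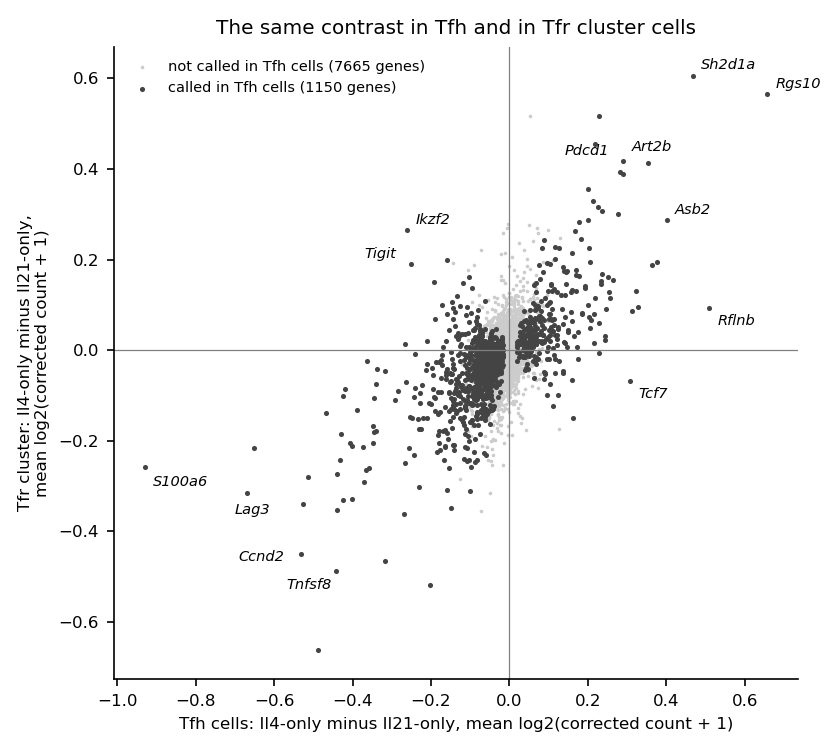
Il4-only minus Il21-only mean log2(corrected count + 1) of each gene in Tfh cells (x axis) and in Tfr cluster cells (y axis), for genes tested in both, with genes called in Tfh cells in dark and the rest in light grey. *Rgs10* and *Sh2d1a* lie at the upper right and *Lag3*, *Ccnd2* and *Tnfsf8* at the lower left, while *Ikzf2* and *Tigit* lie in the upper left quadrant.

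The last question on expression was whether the difference between the sides depends on condition. The difference itself was compared between 5 564Igi and 5 WT chimeras, and 0 of 8944 genes were called (0%) in limma, with 392 at an unadjusted p under 0.05 and a lowest adjusted p of 0.585. For 66 genes (0.738%) the 5 mice of one condition lay apart from the 5 of the other. On simulated data, a change of 0.1 was found for 56% and one of 0.3 for 95% of the changed genes at this design. Changed genes were drawn at random, each with its own spread between mice, so the rates need not hold for the leading genes. For the 24 genes above, the lowest adjusted p was 0.981. *Rgs10* differed between the sides by 0.60 in WT and 0.71 in 564Igi chimeras, *S100a6* by -0.93 and -0.93, *Lag3* by -0.62 and -0.72, and *Pdcd1* by 0.17 and 0.41. Leaving out a mouse gave 0 to 2 calls: *Rgcc* without WT mouse 12, *Sostdc1* without WT mouse 14, and *Gm30211* and *Smtn* without 564Igi mouse 17.

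Between the conditions, levels within each side rarely differed. In Il4-only cells 1 gene was called (0.0112%), the predicted gene *Gm42031*, at 0.518 ± 0.178 in WT and 2.49 ± 0.864 in 564Igi chimeras (difference 1.97 ± 0.241, limma adjusted p = 0.000166). In Il21-only cells it was at 0.495 ± 0.128 and 2.52 ± 0.479 (2.03 ± 0.151, limma adjusted p = 1.70e-08), and *Tpt1*, the translationally controlled tumor protein gene, was called with it (0.25 ± 0.0446, limma adjusted p = 0.0457), 2 of 8944 genes (0.0224%). *Gm42031* was called in each side with any mouse left out, and *Tpt1* in 3 of those 10 fits. In Il4-only cells *Gm42031* was not called without the variance trend (limma adjusted p = 0.936) or without the filter (0.917). *Gm42031* was not called between the sides (-0.01 ± 0.0745, limma adjusted p = 0.977). The conditions did not overlap for *Gm42031* on either side or for *Tpt1* in Il21-only cells, as for 57 genes (0.637%) in Il4-only and 62 (0.693%) in Il21-only cells. The authors normalized the conditions separately, and how far that moves these differences was not tested. Without 564Igi mouse 17, 13 genes were called in Il4-only cells, among them *Sostdc1* (0.58 ± 0.0964), *Ly6a* (0.56 ± 0.105), *Tpi1* (0.47 ± 0.0754) and *Spp1* (0.30 ± 0.0524) toward 564Igi and *Thy1* (-0.63 ± 0.104) and *Cd96* (-0.15 ± 0.0305) toward WT chimeras. These were named after their values were seen.

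The T cell receptor (TCR) of the same cells was not used by the rule. A paired TCR was found for 1216 (77.5%) Il4-only and 2238 (77.0%) Il21-only cells. A clonotype was a pair of CDR3 amino acid sequences in a mouse, with its size counted over all cells with a TCR. The share of Il4-only cells in clonotypes of 2 or more cells was 65.6%, 87.6%, 67.1%, 65.1% and 64.9% in WT mice 11, 12, 14, 23 and 36, and 70.8%, 63.1%, 78.2%, 75.0% and 71.4% in 564Igi mice 13, 17, 21, 24 and 34. That of Il21-only cells was 87.2%, 86.7%, 75.5%, 90.9% and 84.2%, and 82.5%, 85.1%, 82.9%, 77.5% and 68.3%. Il21-only cells were more often in expanded clonotypes in 8 of 10 mice, WT mouse 12 and 564Igi mouse 34 being the exceptions. The means were 70.9% ± 7.62 and 82.1% ± 6.61, a difference of -11.2 ± 10.4 percentage points (SD, n = 10, exact sign-flip test, two-sided, p = 0.0117, adjusted over 2 comparisons 0.0234). For clonotypes of 5 or more cells the means were 48.0% ± 12.03 and 64.8% ± 12.1, and Il21-only cells were higher in all 10 mice (exact p = 0.00195, adjusted 0.00391). In the activated cluster alone the difference was -11.96 ± 13.4 points (exact p = 0.0293, adjusted 0.0586). Cells with both were at 77.8% and cells with neither at 72.8%. The difference was -14.8 ± 10.9 points in WT and -7.56 ± 9.65 in 564Igi chimeras (exact permutation p = 0.294, adjusted 0.294).

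**Figure D5:**
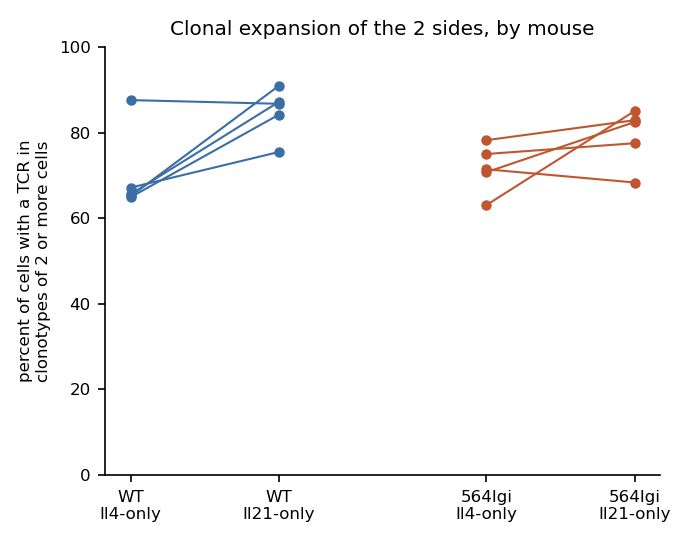
Percent of cells with a paired TCR whose clonotype has 2 or more cells (y axis, 0 to 100) in Il4-only and Il21-only cells, 1 line per mouse (WT blue, 564Igi orange). The line rises toward Il21-only cells in 8 of 10 mice, and WT mouse 12 has the highest Il4-only share at 87.6%.

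Many clonotypes held cells of both kinds. Of 490 clonotypes with 2 or more member cells, 200 (40.8%) held both Il4-only and Il21-only cells, 69 held Il4-only cells alone and 221 Il21-only cells alone. The 200 held 433 Il4-only (35.6%) and 800 Il21-only cells (35.7%) of those with a TCR. The share of such clonotypes ranged from 17.4% in 564Igi mouse 24 to 57.6% in WT mouse 12. The largest clonotype, in WT mouse 23, had 10 Il4-only and 33 Il21-only cells, and the next, in 564Igi mouse 17, had 3 and 37. These counts follow the number of cells captured per mouse and were not tested.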

How the data were processed

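Spleen cells of 10 bone marrow chimeras were measured as 10x 5′ gene expression libraries with paired TCR libraries. Per the study's methods, Cell Ranger 4.0.0 was run against GRCm38 and the authors filtered cells in Seurat 3.1.4 on genes, reads, mitochondrial, ribosomal and cell cycle content, removed receptor genes and clustered the cells. The deposited matrix holds the natural log of sctransform-corrected counts plus 1 (13798 genes, 28192 cells), with WT and 564Igi cells normalized separately by the authors. Per the study's methods that step regressed mitochondrial and ribosomal content, UMIs and a heat shock score, and whether this acts on the corrected counts was not checked. With the log undone, 100% of values other than 0 were whole (tolerance 1e-06), between 2804 and 4591 per cell, so these are not raw counts and no count model was run. The deposited cell table gives raw UMI counts, percent of mitochondrial and ribosomal UMIs, and scores for heat shock and cell cycle made by the authors, which were not compared here. Libraries held 1121 to 4030 cells and 3424280 to 15241983 UMIs. The files name no doublet removal, and none was run. Of the 4475 members, 153 carried a barcode that also occurs in another library.

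Levels are means over cells of log2(corrected count + 1), a pseudocount of 1, per mouse and class. Genes found in a mean of at least 2% of cells entered limma 3.58.1 (R 4.3.3, variance trend) on the within-mouse difference, or between conditions, with Benjamini-Hochberg adjustment over all genes tested and a call at adjusted p below 0.05. The study's own test treated cells as replicates. Here each mouse gives 1 value per side, and the sides are paired because they come from the same animal. A mouse needed 10 cells per side. Single values were tested by exact permutation of the 10 mice (smallest p 0.00794) or exact sign flips (smallest p 0.00195), two-sided. On simulated data with the changed genes drawn at random, 88% of differences of 0.1 and 100% of 0.3 were found between the sides over 8944 genes. Positions are from GENCODE vM21 on GRCm38. Intervals and limits for shares cover counting error only.

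The members, gene lists and tests were chosen with earlier results of these data known. The genes named are the 12 with the largest called difference in each direction and the same sign in every mouse, the 3 largest in each direction of other comparisons, and called members of the lists. Alternatives varied the filter, the trend, the pairing, the threshold, the pseudocount, the weighting and the mice. Matching of mitochondrial quintiles or of cluster share, and the comparison in Tfr cells, were added after seeing the data. One gene called in both Tfh and Tfr cells is not reported here.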

Additional observations from a re-analysis of the deposited data

Results flagged for a closer look

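In 44 sets of values of 5 or 10 mice, 2 had a mouse far from the others, where chance gives about 1 in 20. The share of Il4-only cells in clonotypes of 2 or more cells was 87.6% in WT mouse 12, against 67.1% in the next and 64.9% in the lowest WT mouse. This is also the mouse with more Il4-only than Il21-only cells. The *Art2b* difference between the sides was 0.73 in 564Igi mouse 24, against 0.44 in the next and 0.12 in the lowest of the 10 mice. That mouse had the fewest Il4-only cells, 31. No gene named here differed between the sides in opposite directions in all WT and all 564Igi chimeras.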

How the results depend on the processing

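Between the sides, 1172 calls became 397 with no pairing of the sides by mouse (the replicate block), with 110 higher in Il4-only and 287 in Il21-only cells, 105 at adjusted p below 0.01 with a difference above 0.2, 738 without the mice of libraries 34 and 36, 744 with UMI quintiles matched, 652 with members of at least 2 counts and 743 with mitochondrial quintiles matched. The same settings without the pairing, with the stricter threshold and without those 2 mice gave 406, 120 and 620 in the activated cluster and 69, 58 and 104 in the Sostdc1 cluster, where no filter gave 71. Leaving out 1 mouse gave 905 to 1326, 755 to 1086 and 124 to 178. Named genes that were called kept their direction under every alternative, with 388 values losing their call, while the uncalled *Gm42031* and *Cst3* changed sign in 5 and 1 of theirs. Between conditions, the call in Il4-only cells became 0 without the trend and 0 without the filter, and the 2 in Il21-only cells became 1 under both, at 10% detection, at the stricter threshold and with a pseudocount of 0.1. Leaving out 1 mouse gave 1 to 13, 1 to 2 and, for the difference between sides, 0 to 2. The 564Igi minus WT share of cells with both was -0.0303 points at 2 or more counts. With 1 mouse left out, the difference in Il4-only share ran from -2.75 to 0.276, that in the Sostdc1 share from -3.76 to 0.589 for Il21-only and 5.39 to 11.6 for Il4-only cells, that in ribosomal UMIs from -0.110 to 0.360, median UMIs from -426.4 to -261.4 and median genes from -126 to -87.0. In the activated cluster alone, median UMIs differed by -290.0 and expanded clonotypes by -11.96 points, without passing the adjusted threshold. Every TCR cell lists 1 alpha and 1 beta chain, so that alternative changes nothing. Causes were not tested.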
